A study of Homo sapiens and Mus musculus with 74 samples.

Results

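Ribosome-protected fragments (RPFs) of the mouse kidney were compared between Rpl41 knockout (KO) and wild-type (WT) males. The comparison takes the 6 kidney Ribo-seq libraries, 3 WT and 3 KO, out of 74 samples in the series, and covers 22484 protein-coding genes, with 1 transcript kept per gene, that of the longest annotated protein. Of these genes, 13438 had enough footprints to be tested. The KO mice were homozygous for a CRISPR-Cas9 deletion of the whole Rpl41 coding sequence made in C57BL/6J zygotes, the WT mice carried both intact alleles, and all were males aged 10 weeks with no further treatment named. The deletion is constitutive, so every cell type of the kidney lacked the gene throughout life. The labels name the tissue only as kidney and do not say whether each library came from 1 animal, so p-values measure the spread between these libraries. In whole tissue, fewer cells of a type and fewer footprints per cell cannot be told apart.

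Ribo-seq sequences the short pieces of mRNA that ribosomes shield from RNase, so the number of footprints on a gene reflects both how much of its mRNA is present and how densely ribosomes occupy it. RPL41 (eL41) is the smallest protein of the ribosome, a short and highly basic helix that lies at a bridge between both subunits and, despite its name, is now counted with the small subunit. The kidney filters plasma in the glomerulus and then recovers most of the filtrate. The proximal tubule does so with brush border transporters and endocytic receptors, the thick ascending limb and distal tubule with sodium and magnesium transport, and the collecting duct with regulated water and sodium channels.

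The sequence that the KO mice lack is shown because it defines the groups compared. It is the 25-codon coding sequence of Rpl41 in GENCODE M21 (GRCm38), in 3 coding exon pieces and a stop codon between chr10:128548387-128548960 on the minus strand. It has 78 bases with the stop codon, and the capitals mark the codons for lysine and arginine, which make up 17 of the 25.
Rpl41 coding sequence: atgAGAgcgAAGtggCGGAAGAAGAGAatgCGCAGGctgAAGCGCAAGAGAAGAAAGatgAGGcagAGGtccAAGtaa

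Footprints on Rpl41 checked the labels. WT libraries 1 to 3 held 85, 41 and 50 footprints and KO libraries 0, 1 and 2, counted on the isoform with the longest annotated protein. Normalised to CPM (counts of each library scaled to a common total, with TMM factors), these were 11.1, 9.90 and 13.4 CPM in WT and 0, 0.0841 and 0.188 CPM in KO. Pooled over libraries, the WT level was 95.9 times the KO level, with an exact 95% interval of 32.3 to 469 that covers counting error only. The adjusted p was 4.01e-05. This and every adjusted p below came from the quasi-likelihood test of edgeR, adjusted over all tested genes by the Benjamini-Hochberg method. All 3 KO libraries matched their labels.

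Depth differed between libraries. Counts over all listed transcripts were 25882664, 14861418 and 13573525 in WT and 11036643, 42452425 and 39384669 in KO, of which 27.3% to 28.0% fell on the transcripts chosen for coding genes. Kidney markers were abundant in all 6 libraries, from Slc34a1, the main phosphate transporter of the proximal tubule (at least 4184 CPM), to the podocyte gene Nphs1 (at least 19.5 CPM). Genes of neurons and glia summed to 27.0 to 36.3 CPM in each library, and those of skeletal muscle to 98.3 to 128 CPM. Pancreatic enzyme genes differed between libraries, with 2106 CPM in WT library 1, 782 and 980 in the other WT libraries, and 776, 534 and 527 in KO.

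In KO kidneys, 882 genes (6.56% of those tested) had more footprints and 557 (4.14%) had fewer, 1439 in all (10.7%). Most changes were small. The rises had a median of 0.52 on the log2 scale and the falls of -0.60, and 852 of the rises and 397 of the falls lay within a change of 1. The KO libraries all lay above the WT libraries for 16.7% of tested genes and all below for 15.9%. Scaling by library totals in place of TMM moved the median of all genes from -0.02 to -0.12 and turned the split of calls from 61.3% higher to 27.8% higher (283 higher and 736 lower), so the directions given below are relative to the TMM scale. None of the 1439 called genes changed sign under that scaling. The calls of lists described below moved with it: 3 laminins and basement membrane glycoproteins, 6 giant cytoskeletal linkers, 9 giant regulators, 7 giant ubiquitin ligases, 4 nuclear pore proteins, 3 collagens, 3 genes of the major histocompatibility complex, 3 interferon-stimulated genes, 2 fatty acid oxidation genes, 4 aminoacyl-tRNA synthetases and 5 proximal tubule transporters were then higher, and 16 complex I subunits and 11 mitochondrial ribosomal proteins lower.

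The number of calls rested on 2 libraries. Without KO library 2, 13 genes were higher and 16 lower, and without KO library 3, 9 were higher and 11 lower, whereas leaving out any of the other 4 libraries left between 690 and 1585 calls. Genes at an unadjusted p under 0.05 by edgeR numbered 2742 without KO library 2 and 2646 without KO library 3. With all 6 libraries they numbered 3836. The calls without WT library 1 numbered 704 and those without WT library 2 690. KO libraries 2 and 3 were the deepest of the 6. Every called gene that could still be tested kept its direction in each of these fits. The call counts of gene lists below carry this limit: over 75 lists there were 296 called memberships with all libraries, 3 without KO library 2 and 1 without KO library 3. Where leaving out KO library 2 or 3 turned the sign of a list's median or moved it by over 1.5 times, the medians without each of these libraries are given beside it.

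**Figure D1:**
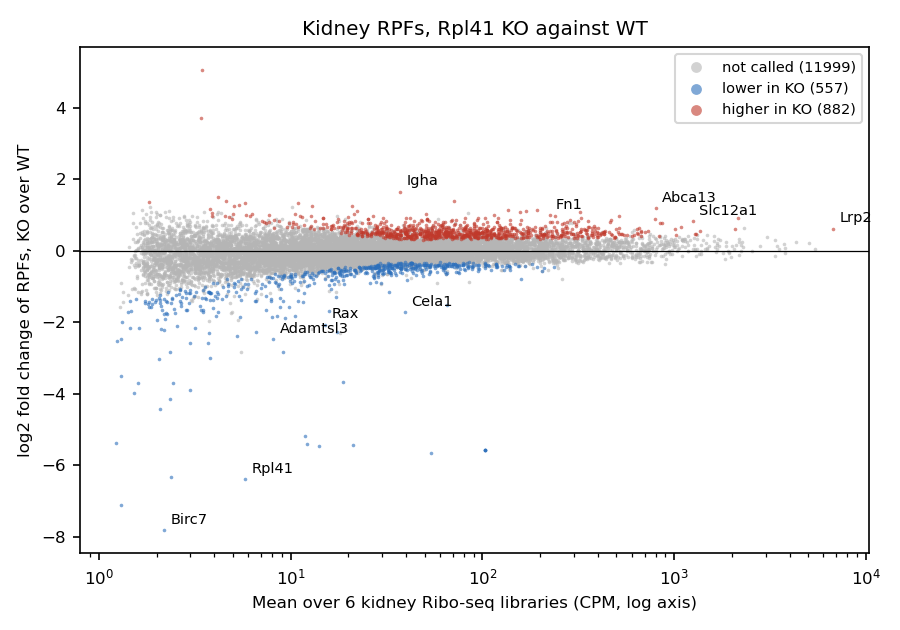
Each point is 1 of 13438 genes, with its mean over the 6 kidney Ribo-seq libraries in CPM on a log axis and its fitted log2 fold change of RPFs (KO over WT) on the vertical axis. Most of the 882 rises (red) lie between 0 and 1, while the 557 falls (blue) include low genes whose fitted values are below -2 and depend on the prior count of the fit.

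**Figure D2:**
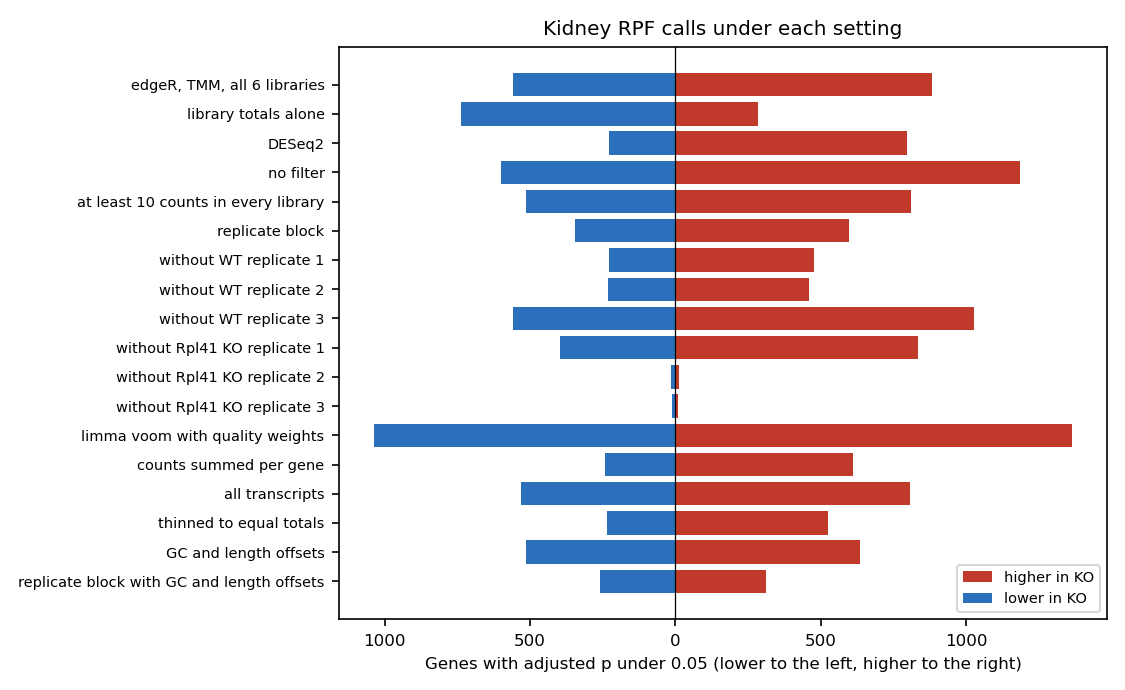
Bars give the number of genes with an adjusted p under 0.05 that were higher (right, red) or lower (left, blue) in KO, with all 6 libraries and under each alternative. Bars without KO replicate 2 (13 and 16) and without KO replicate 3 (9 and 11) are almost empty.

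A set of 19 genes, named after their values were seen, passed the test both without KO library 2 and without KO library 3, 8 higher and 11 lower. Susd2, which encodes a sushi domain protein, rose from 342, 319 and 343 CPM in WT to 602, 592 and 618 CPM in KO, a log2 change of 0.85 (SE 0.10, adjusted p = 0.00322). Utp20, a factor of small subunit rRNA processing, rose from 65.2, 64.9 and 69.2 to 111, 131 and 118 CPM (log2 0.86). Cspg4, the pericyte proteoglycan NG2, rose from 54.7, 47.1 and 54.0 to 94.5, 96.3 and 91.3 CPM (log2 0.85). In each of these genes the lowest KO library stood above the highest WT library. Pxdn, a peroxidase that crosslinks collagen IV, rose by 0.84 on the log2 scale, the lipid transporter gene Abca5 by 0.87, and the guidance ligand gene Slit2 by 1.03. The other 2 rises were immunoglobulin genes, Igha and Igkv1-110. Igkv1-110 had 0, 2 and 1 footprints in WT, so it entered the test on its KO libraries alone.

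The falls of this kind were in genes with few footprints. Rax, a homeobox transcription factor known from eye and hypothalamus, had 20.7, 30.7 and 20.6 CPM in WT and 8.46, 5.04 and 5.17 CPM in KO (log2 -2.06, SE 0.23, adjusted p = 0.00272). Adamtsl3, a matrix protein gene, fell from 9.55, 13.8 and 17.9 to 2.82, 2.19 and 2.44 CPM, and Mmp24, a membrane-type metalloproteinase, from 7.33, 9.17 and 10.7 to 0.705, 1.77 and 1.88 CPM. All 3 genes showed no overlap between groups. Six2, the transcription factor of nephron progenitors, had 29, 23 and 16 footprints in WT and 0, 4 and 2 in KO, although the KO libraries 2 and 3 were deeper. Birc7, an inhibitor of apoptosis, had 20, 26 and 16 footprints in WT and none in any KO library, which is at least 33.8-fold lower against a floor of 3 counts over the group. Lypd5 and Vax1 had 1 footprint each over the KO libraries, against 73 and 37 over the WT libraries. Birc7, Lypd5 and Vax1 thus entered the test on their WT libraries alone, so their place in this set is not separate support for a fall. The remaining falls were Hs6st3, Nefh, Pgr15l and Rpl41 itself. Of these low genes, only Mmp24 and Rpl41 had enough reads in kidney RNA-seq to be tested there.

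More widely, 826 of the tested genes did not pass the count filter in kidney RNA-seq. Among them 115 fell (13.9%) and 21 rose (2.54%), against 442 falls (3.51%) and 861 rises (6.83%) among the 12612 genes that passed it. The 115 falls had a median level of 3.51 CPM and a median log2 change of -1.64. A gene this low could enter the footprint test on its WT libraries alone, as Birc7 did with no footprint in KO. Entry on the KO libraries alone also occurred, as for Igkv1-110 with 0, 2 and 1 footprints in WT. How far the count filter and the low level shaped the excess of falls was not tested. The transcription factor gene Prdm13 (17.8, 21.5 and 10.2 CPM in WT, 4.93, 5.38 and 3.85 in KO), the sperm fibrous sheath gene Fsip2 and the olfactory receptor gene Olfr1256 were among the 15 largest falls that had at least 5 CPM on average. Multimapping reads were counted, so levels of receptor families of this kind may include reads from related genes.

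By a rule that asks for a mean of at least 5 CPM and groups that do not overlap, the 15 largest rises ran from 1.65 (Igha) to 1.04 (Itih1) on the log2 scale. Tnxb (tenascin-X, a matrix glycoprotein) had 51.8, 41.0 and 23.0 CPM in WT and 66.6, 130.3 and 111 in KO, Abca13 (an ABC transporter) 514, 554 and 393 and 793, 1325 and 1236, Thbs1 (thrombospondin 1) 117, 118 and 82.9 and 177, 281 and 232, and Svep1 (a matrix adhesion protein) 134, 99.0 and 70.3 and 160.0, 249 and 231. In all 4 genes WT library 3 was the lowest of the WT libraries and KO library 1 the lowest of the KO libraries. Osgin1, a gene induced by oxidative stress, rose from 126, 94.1 and 143 to 205, 310.3 and 275 CPM. Wdfy1, an endosomal protein gene among the falls, had 7.46, 41.0 and 39.0 CPM in WT and 6.34, 5.13 and 6.01 in KO, so that WT library 1 stood near the KO level. Its adjusted p of 0.022 became 0.0615 without WT library 2 and 0.102 and 0.103 without KO libraries 2 and 3.

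The called genes of both proximal tubule lists were all higher. Of 26 tested endocytic receptors and brush border proteins, 9 rose (34.6%, against 6.56% of all genes) and none fell. The median log2 change was 0.34 against -0.02 for all genes, and 0.35 and 0.32 without KO libraries 2 and 3. Myo7b, a motor of the brush border tip, rose from 162, 145 and 179 to 245, 258 and 282 CPM (log2 0.69, SE 0.11, adjusted p = 0.00975). Mme (neprilysin, a brush border peptidase) rose from 165, 186 and 194 to 248, 287 and 265 CPM. Myo6, the motor of endocytic uptake, rose from 517, 544 and 578 to 795, 786 and 809 CPM. Megalin (Lrp2) and cubilin (Cubn), the receptors that take filtered proteins back, passed more narrowly. Lrp2 had 5149, 5920 and 4891 CPM in WT and 7757, 8449 and 8395 in KO (adjusted p = 0.0465), the highest level of any gene discussed, and Cubn had 1527, 1900 and 1515 and 2229, 2624 and 2679 CPM (adjusted p = 0.0308). These receptors were chosen for display after their values were seen.

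Of 44 proximal tubule solute transporters, 8 rose (18.2%, against 6.56% of all genes) and none fell (median 0.21). Slc9a3, the apical sodium-proton exchanger NHE3, rose from 107, 111 and 117 to 190.0, 156 and 175 CPM (log2 0.64, adjusted p = 0.0102). Abcc2, an apical exporter of conjugates, rose from 524, 594 and 661 to 885, 858 and 873 CPM, and Slc4a4, the basolateral sodium bicarbonate cotransporter, from 1101, 1158 and 1057 to 1766, 1473 and 1591 CPM. Over all 295 tested genes with solute carrier symbols, 30 rose and 11 fell, or 10.2% and 3.73% against 6.56% and 4.14% of all genes. The 30 include Slc4a1ap, which encodes an adaptor protein and not a carrier. The strongest fall in the list was Slc6a5, a glycine transporter of inhibitory neurons, with 74, 18 and 10 footprints in WT and 1, 3 and 6 in KO.

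In the thick ascending limb and distal convoluted tubule list, 3 of 20 tested genes rose and 2 fell (median 0.26). These are 15.0% and 10.0%, against 6.56% and 4.14% of all genes. Slc12a1, the furosemide-sensitive cotransporter NKCC2, rose from 918, 944 and 843 to 1564, 1653 and 1564 CPM (log2 0.82, SE 0.12, adjusted p = 0.00898). Egf, whose membrane precursor is made there in large amounts, rose from 1506, 1634 and 1356 to 2684, 2964 and 2782 CPM (log2 0.91). The KO libraries of both genes were close together and well above WT. Ppp1r1a, an inhibitor of protein phosphatase 1, fell from 62.4, 53.8 and 75.1 to 45.5, 42.2 and 39.4 CPM. The other 2 called members were the magnesium channel gene Trpm6 (log2 0.84) and the calcium buffer gene Pvalb (-0.64). In the collecting duct list, 1 of 21 rose (4.76%, against 6.56% of all genes), the sodium channel subunit gene Scnn1g (42.9, 47.1 and 37.4 CPM in WT, 56.7, 61.3 and 60.0 in KO). None of 14 podocyte genes passed (median -0.10), nor of 12 sodium pump genes (0.17, with 0.07 and 0.15 without KO libraries 2 and 3) or 17 genes with higher levels in male kidneys (0.12), where Kap, an androgen-regulated proximal tubule gene, had 2762, 4168 and 4692 CPM in WT and 6044, 2448 and 2653 in KO. Of 4 called endothelial genes (of 14, median 0.37), Eng, a TGF-beta coreceptor, rose from 244, 224 and 144 to 394, 359 and 361 CPM and Pecam1 from 58.2, 55.5 and 46.5 to 79.3, 85.2 and 75.3 CPM, while Robo4 and Kdr rose by 0.54 and 0.53 on the log2 scale. These rises are 28.6% of the list, against 6.56% of all genes.

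Of 18 laminins and basement membrane glycoproteins (median of 1934 residues), 11 rose (61.1%) and 1 fell (5.56%). The median log2 change was 0.68 (0.58 without KO library 2 and 0.63 without KO library 3). Lamb1 (laminin beta 1) rose from 259.9, 297 and 209.5 to 417, 470.4 and 489 CPM (log2 0.85, SE 0.14, adjusted p = 0.00975), Lama5 (laminin alpha 5, a main chain of the glomerular membrane) from 82.8, 82.8 and 79.6 to 118, 147 and 128 CPM, and Lama2 from 112, 81.1 and 59.1 to 146, 210.2 and 202 CPM. Fibronectin (Fn1) had 186, 172 and 89.3 CPM in WT and 204, 381 and 312 in KO, and its KO library 1 lay only just above WT library 1. The member that fell was Fbn2 (fibrillin 2), at 6.80, 6.76 and 6.41 CPM in WT and 1.76, 3.70 and 2.91 in KO. Collagen chains rose in 6 of 31 and fell in 1 (median 0.29, with 0.18 and 0.32 without KO libraries 2 and 3), led by Col15a1 (88.1, 84.7 and 58.3 CPM in WT, 126, 176 and 159 in KO). These are 19.4% and 3.23%, against 6.56% and 4.14% of all genes. The collagen proteins had a median of 1669 residues. In the longest of 10 equal groups by protein length (1175 residues and more), 25.4% of genes rose, a larger share than of collagens.

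Giant cytoskeletal linkers rose in 15 of 26 and fell in none (median 0.54). Dst (dystonin, which joins filament systems) rose from 186, 189 and 173 to 254, 303 and 307 CPM, and Syne2 (nesprin 2, which ties the nucleus to actin) from 263, 217 and 207 to 336, 432 and 394 CPM. Ahnak, a giant scaffold protein, had 452, 342 and 243 CPM in WT and 507, 839.8 and 693 in KO. Of 30 myosin heavy chains (median of 1940 residues), 6 rose (20.0%) and 1 fell (3.33%). In the longest of 10 equal groups by protein length, 25.4% of genes rose and 2.31% fell. Myh9, the non-muscle myosin IIA, rose from 565, 517 and 463 to 724, 870.1 and 796 CPM. Giant ubiquitin ligases rose in 12 of 16, among them Rnf213 (106, 96.6 and 92.5 CPM in WT, 155, 185 and 197 in KO, adjusted p = 0.00538) and Herc1 (79.8, 81.8 and 85.3 and 123, 129 and 123 CPM). The 1 ligase that fell, Hecw1, was low, at 9.16, 13.8 and 13.6 CPM in WT and 5.64, 3.28 and 2.44 in KO. Kinases of the PI3K-related family and other giant regulators rose in 21 of 36 and fell in none (median 0.43), with the lipid transfer gene Vps13c at 49.7, 50.0 and 52.9 CPM in WT and 76.1, 85.2 and 80.6 in KO. Rises made up 57.7% of the linkers, 75.0% of the ligases and 58.3% of the regulators, with medians of 2624.5, 3588 and 2895 residues. The lists were not matched in length to the longest group, and their excess over its 25.4% was not tested.

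Of 45 dynein and kinesin heavy chains, 3 rose and 5 fell, with a median of -0.05 (-0.17 without KO library 2 and 0.03 without KO library 3). The cytoplasmic dynein motor Dync1h1 rose from 647, 599.6 and 609.9 to 932, 1112 and 1138 CPM, whereas the mitotic kinesin Kif14 (5.76, 8.69 and 4.01 CPM in WT, 1.76, 1.34 and 0.939 in KO) and the axonemal dynein Dnah17 (7.72, 7.97 and 6.68 and 4.23, 3.11 and 2.63 CPM) fell. Titin (Ttn), the longest protein tested, fell from 8.77, 12.3 and 11.2 to 5.99, 6.30 and 5.07 CPM.

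The relation to protein length held across all tested genes. Over 10 equal groups of the tested genes ordered by the length of the encoded protein, the median log2 change of RPFs rose at every step, from -0.25 in the shortest group (18 to 172 residues) to 0.25 in the longest (1175 residues and more). In the shortest group 8 genes rose and 168 fell (0.595% and 12.5%), and in the longest group 342 rose and 31 fell (25.4% and 2.31%). Called rises encoded proteins with a median of 979 residues, called falls 278, and genes not called 453. The gradient was present in each of 3 equal classes of genes by GC content, from -0.25 to 0.35 in the lowest class and from -0.26 to 0.14 in the highest. GC content itself went with a smaller shift, from 0.05 to -0.16 over 10 equal groups from the lowest to the highest.

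The libraries differed in how far they took part. On a log2(CPM + 1) scale, the median deviation of the longest group from each gene's mean over the libraries was -0.05, -0.07 and -0.23 in the WT libraries (in the order 1 to 3) and 0.03, 0.19 and 0.16 in the KO libraries. For the shortest group it was 0.06, 0.07 and 0.24 in WT and -0.09, -0.14 and -0.13 in KO. The groups did not overlap at either end, yet WT library 3 on one side and KO libraries 2 and 3 on the other stood farthest out. A further fit included the length and GC content of the whole transcript as offsets. The length of the protein itself was not part of these offsets. In that fit 635 genes were higher and 513 lower. Among the rises were 10 of the giant cytoskeletal linkers, 9 of the giant regulators, 5 of the giant ubiquitin ligases and 11 of the laminins and basement membrane glycoproteins.

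Of 49 large and 32 small subunit protein genes tested other than Rpl41, 1 fell and none rose. That gene was Rplp2, an acidic stalk protein, with 145, 140.2 and 175 CPM in WT and 107, 111 and 127 in KO (log2 -0.41, adjusted p = 0.0486). The others lay between -0.31 and 0.24 on the log2 scale, and both subunits had medians of -0.09. The large subunit median was 0.01 without KO library 2 and -0.20 without KO library 3, and the small subunit median 0.03 and -0.26. Aminoacyl-tRNA synthetases, which charge tRNAs, rose in 8 of 37 and fell in 1 (median 0.16), with Lars at 60.7, 65.7 and 63.3 CPM in WT and 105, 97.3 and 94.2 in KO, Iars at 99.4, 104 and 83.7 and 140.3, 148 and 167, and the fused enzyme Eprs at 164, 158 and 170.0 and 229, 234 and 248. The fall was the mitochondrial enzyme gene Lars2 (log2 -0.54). Rises made up 21.6% of these synthetases and falls 2.70%. Of 54 genes with initiation factor symbols, Eif3a and Eif5b rose by 0.56 and 0.53 and Eif1 and Eif4ebp2 fell by 0.41 and 0.46 on the log2 scale. Eif4ebp2 encodes a binding protein of eIF4E and not an initiation factor. These calls are 3.70% each way against 6.56% and 4.14% of all genes. None of 13 elongation factor genes passed (median -0.05, with 0.08 and -0.06 without KO libraries 2 and 3), and Eef2 had 736, 552 and 868 CPM in WT and 973, 781 and 1120 in KO (adjusted p = 0.156).

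Among factors that act on collided or stalled ribosomes, 4 of 21 rose (19.0%, against 6.56% of all genes) and none fell. Their median was 0.06, with 0.02 and -0.04 without KO libraries 2 and 3. The rises were Gcn1l1, which senses collisions (157, 144 and 141 CPM in WT, 221, 212 and 230.4 in KO), Gigyf2, a repressor of initiation on troubled mRNAs (63.7, 68.6 and 67.6 and 83.9, 103 and 113 CPM), Ltn1, the ligase that marks stalled chains (111, 109 and 119.7 and 160.0, 155 and 170.5 CPM), and Ascc3 (log2 0.42). All of these encode long proteins. None of 20 target genes of the integrated stress response passed (median -0.06, with -0.11 and -0.08 without KO libraries 2 and 3), nor of 24 endoplasmic reticulum chaperones (0.12) or 37 proteasome subunits (-0.07, with -0.06 and -0.11). Of 23 p53 target genes, 1 fell (4.35%, against 4.14% of all genes), the apoptosis gene Bax (34.9, 39.3 and 34.7 CPM in WT, 25.4, 24.7 and 25.9 in KO). Nuclear pore proteins rose in 9 of 26 and fell in none (median 0.30), with Ranbp2 at 185, 201 and 209 CPM in WT and 278, 356 and 374 in KO. These rises are 34.6%, against 6.56% of all genes and 25.4% of the longest of 10 equal groups by protein length. The list had a median of 872.5 residues, and its called members had 1155 to 3053.

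The called genes of the mitochondrial ribosome and of complex I, the entry point of the respiratory chain, were mostly lower. Of 78 mitochondrial ribosomal proteins, 8 fell (10.3%, against 4.14% of all genes) and none rose. The median was -0.20, with -0.18 and -0.21 without KO libraries 2 and 3. All KO libraries lay below all WT libraries in 42 of the 78 and above them in 2. Among all genes these shares were 15.9% and 16.7%. The list holds short proteins (median of 194 residues). With transcript length and GC offsets, 8 of them fell and none rose, and the median was -0.07. Mrpl42 fell from 60.5, 61.6 and 69.0 to 39.1, 42.4 and 46.6 CPM (log2 -0.56, SE 0.10, adjusted p = 0.0126), Mrpl34 from 69.6, 75.6 and 69.0 to 55.0, 52.8 and 50.3 CPM, and Mrpl33 from 40.7, 35.7 and 45.4 to 27.1, 29.7 and 28.9 CPM. Of 36 complex I subunits, 7 fell and 1 rose (median -0.26). These are 19.4% and 2.78%, against 4.14% and 6.56% of all genes. Ndufb7 fell from 128, 135 and 135 to 105, 98.9 and 103 CPM and Ndufb9 from 238, 265 and 322 to 207, 190.5 and 202 CPM, while Ndufs1, the largest subunit, rose from 476, 524 and 551 to 699.9, 666 and 697 CPM. With transcript length and GC offsets, 1 complex I subunit fell and none rose, and the median was -0.08. Complexes II, III and IV and the ATP synthase held no call (medians between -0.21 and -0.12, between -0.14 and -0.05 without KO library 2 and between -0.17 and -0.08 without KO library 3), nor did the 13 genes of the mitochondrial genome (median -0.09, with 0.03 and -0.11), where mt-Co1 had 4212, 5735 and 6144 CPM in WT and 6947, 4384 and 5202 in KO.

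Fatty acid oxidation and carnitine genes rose in 8 of 33 and fell in none (median 0.15), among them Cpt1b, a carnitine acyltransferase that brings fatty acids into mitochondria (35.2, 34.0 and 37.7 CPM in WT, 51.1, 63.5 and 49.0 in KO), Acsm1 (316, 249.6 and 337 and 456, 484 and 477 CPM) and Hadha (328, 380.2 and 337 and 450.1, 492 and 482 CPM). Cholesterol synthesis genes fell in 4 of 20 and rose in none (median -0.20, with -0.09 and -0.26 without KO libraries 2 and 3). Fdps, which makes farnesyl pyrophosphate, fell from 89.4, 87.1 and 60.1 to 53.6, 44.3 and 55.1 CPM (log2 -0.65, adjusted p = 0.025), Msmo1 from 96.7, 94.6 and 79.9 to 70.1, 46.3 and 63.8 CPM, and Fdft1, the squalene synthase gene, from 65.8, 61.3 and 47.6 to 38.4, 32.3 and 44.8 CPM. In Insig1, a regulator of the pathway that was the fourth, KO library 3 (36.2 CPM) met WT library 3 (36.1 CPM). Of 22 glutathione transferases 2 fell, Gsta3 from 223, 274 and 234 to 164, 163 and 165 CPM and Mgst1 from 136, 144 and 129 to 94.8, 105 and 98.0 CPM. Cytochrome P450 genes rose in 6 of 55 and fell in 1 (median 0.15), with Cyp1b1 at 58.9, 49.0 and 38.8 CPM in WT and 80.0, 96.8 and 93.1 in KO. Of 20 selenoproteins, Selenok and Selenow fell by 0.42 and 0.61 and Txnrd3 rose by 0.38 on the log2 scale. Rises made up 24.2% of fatty acid oxidation genes, 10.9% of cytochrome P450 genes and 5.0% of selenoproteins, against 6.56% of all genes. Falls made up 20.0% of cholesterol synthesis genes, 9.09% of glutathione transferases, 1.82% of cytochrome P450 genes and 10.0% of selenoproteins, against 4.14% of all genes.

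The called genes of antigen presentation, interferon response and complement were all higher. Genes of the major histocompatibility complex rose in 9 of 26 (median 0.34), among them the class II genes H2-Eb1 (107, 75.8 and 75.4 CPM in WT, 169.5, 139 and 151 in KO) and H2-Ab1 (124, 105 and 80.4 and 173, 171 and 183 CPM) and the invariant chain Cd74 (333, 296 and 245 and 496, 438 and 423 CPM). Cd74, counted in this list, lies on chromosome 18, outside the complex. Genes of the complex itself share long stretches of sequence, so reads may have been counted for more than 1 of them. Interferon-stimulated genes rose in 6 of 28 and fell in none (median 0.34), with the RNA sensor Ifih1 at 27.3, 31.4 and 30.5 CPM in WT and 46.2, 51.8 and 47.8 in KO and Gbp2 at 23.9, 16.4 and 13.1 and 32.8, 30.9 and 44.6 CPM. Complement and acute-phase genes rose in 4 of 23 and fell in none (median 0.11), among them C1ra, Serping1 and C1s1 by 0.76, 0.56 and 0.73 on the log2 scale. Rises made up 34.6%, 21.4% and 17.4% of these lists in turn, against 6.56% of all genes. Vcam1, an adhesion molecule listed with injury markers, rose from 33.2, 27.8 and 23.3 to 36.3, 61.8 and 57.9 CPM. Of 7 tested B cell and plasma cell genes (16 listed), 3 rose (42.9%, against 6.56% of all genes) and 4 were not called. The list's median was 0.33, with 0.65 and 0.96 without KO libraries 2 and 3, and its lowest member had -0.35. Igha rose from 18.6, 23.4 and 11.8 to 52.5, 51.8 and 65.5 CPM (log2 1.65, adjusted p = 0.00272). Igkc rose from 10.2, 15.7 and 11.8 to 27.8, 25.6 and 34.4 CPM, and Jchain from 4.19, 5.55 and 1.87 to 7.40, 8.49 and 7.80 CPM.

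Markers of leukocytes were examined beside these genes. Of 13 tested genes of T cells and macrophages, 2 rose, Ptprc (the CD45 gene) from 17.0, 12.1 and 8.29 to 20.8, 22.6 and 24.1 CPM and Csf1r from 53.5, 45.1 and 47.3 to 61.0, 68.1 and 66.2 CPM. The summed level of all 19 listed genes was 174 to 268 CPM in WT and 241 to 278 in KO, and that of 16 B cell and plasma cell genes was 145 to 221 and 201 to 235 CPM. Among listed genes 2 of 19 and 6 of 16 stayed under 1 CPM in every library. The part of these cells in the immune changes was not tested. Of 9 tested liver genes, 3 rose (33.3%, against 6.56% of all genes) and none fell (median -0.09). The rises were Serpina1a and Serpina1b, near-identical copies of the antitrypsin gene (log2 0.83 and 0.81), and the apolipoprotein gene Apob (0.61), while the lowest member, the fibrinogen gene Fgb, had a log2 value of -1.94 and did not pass. The 15 listed liver genes summed to 1460 to 1522 CPM in WT and 2272 to 2311 CPM in KO. Most of this sum came from Apob, Serpina1a and Serpina1b, with means of 1011, 315 and 277 CPM over the 6 libraries.

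Pancreatic enzyme genes fell in 6 of 8 tested members, of 29 listed. Cela1, an elastase, had 106, 34.5 and 42.8 CPM in WT and 10.9, 21.4 and 21.7 in KO, and the trypsinogen gene Prss2 had 71.8, 1.93 and 8.29 and 0.705, 1.18 and 0.0939 CPM. WT library 1 stood far above the other 5 libraries in Prss2, in Ctrb1 (110.3, 1.93 and 12.0 CPM in WT, 0.705, 1.77 and 0.282 in KO) and in Amy2a5 (533, 7.0 and 63.6 and 10.9, 4.79 and 1.22 CPM), where WT library 2 lay within the KO range. Without WT library 1, 6 members could be tested and 2 fell, Cela1 (adjusted p = 0.0317) and Amy2a5 (adjusted p = 0.0488), and Try4 had an adjusted p of 0.0855. Without WT library 2 the falls were 20 of 22, and without KO library 2 or 3 they were 0 of 17. The part of pancreatic tissue in these libraries was not tested.

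Kidney RNA-seq of the same genotypes, in other libraries, gave far fewer calls. Of 13904 genes tested there, 1 passed (0.00719%), Rpl41, while 2520 had an unadjusted p under 0.05 and DESeq2 called 203 higher and 134 lower. Without KO RNA library 1, 850 genes were higher and 727 lower, so this count rested on that library. The genes called higher in RPFs had a median RNA log2 change of -0.04, and those called lower of 0.00. By list, laminins and basement membrane glycoproteins had an RNA median of -0.29, giant cytoskeletal linkers of -0.23, mitochondrial ribosomal proteins of 0.25 and complex I subunits of 0.48, each opposite in sign to the RPF median. Endothelial genes had an RNA median of -0.48 and complement and acute-phase genes of -0.40, also opposite in sign. Cholesterol synthesis genes had an RNA median of -0.38, interferon-stimulated genes of 0.18 and major histocompatibility complex genes of 0.14, each with the sign of the RPF median. Across all genes the RNA median was -0.01.

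The difference between the RPF and RNA changes was tested as the assay by genotype term, which corresponds to translational efficiency (TE). It passed for 326 of 15611 genes (2.09%), 172 with the RPF change above the RNA change (1.1%) and 154 below (0.986%). Among giant cytoskeletal linkers and among laminins and basement membrane glycoproteins, 8 genes each passed above. It passed below for 8 complex I subunits and 11 mitochondrial ribosomal proteins. Myh9 had a log2 change of 0.63 in RPFs and -0.32 in RNA (adjusted p of the term = 0.0325), Slc12a1 of 0.82 and -0.21 (0.0325), and Mrpl42 of -0.56 and 0.35 (0.0414). This count fell to 0 without WT Ribo-seq library 2 or 3, KO Ribo-seq library 2 or 3, WT RNA library 1, or KO RNA library 2 or 3, was 2 without WT RNA library 3, 44 without WT Ribo-seq library 1 and 95 without KO Ribo-seq library 1, and was 799 and 2027 without WT RNA library 2 and KO RNA library 1.

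In brain Ribo-seq of the same genotypes, 2 of 14443 genes passed (0.0138%), both lower, with 2013 at an unadjusted p under 0.05 and 170 higher and 19 lower by DESeq2. Genes called higher in kidney RPFs had a median brain log2 change of 0.23, and those called lower of -0.22. The families differed in this. Giant ubiquitin ligases and PI3K-related kinases with other giant regulators had brain medians of 0.35 and 0.24, and aminoacyl-tRNA synthetases of 0.24. Laminins and basement membrane glycoproteins had a brain median of 0.10, giant cytoskeletal linkers of -0.04, endocytic receptors and brush border proteins of -0.02, and major histocompatibility complex genes of 0.01. A test of the difference between tissues passed for 26 of 15567 genes (0.167%), 8 with the kidney change above the brain change and 18 below.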

How the data were processed

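The authors digested kidney lysates with RNase I, size-selected fragments of 17 to 34 nt, depleted rRNA, trimmed reads with cutadapt, aligned them with STAR to mouse GRCm38 with multimapping reads allowed, and counted them per transcript with featureCounts of Subread (per the methods and the submitters' processing notes, versions not given in the sources used here). The deposited mouse table holds raw counts without normalization. Identifiers matched GENCODE M21 for 141374 of 142604 transcripts, and 1 transcript per coding gene, that with the longest protein, was kept for 22484 genes. Reads that align to more than 1 transcript could be counted for each, so totals may be larger than the number of reads. Another deposited table, of human transcripts headed with mouse titles, has 28 columns that could not be assigned to samples and was not used.

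Genes passing edgeR's filterByExpr were TMM-scaled and genotypes were compared with the quasi-likelihood F-test of edgeR 4.0.16 (genotype as the only covariate), using Benjamini-Hochberg adjustment and a threshold of 0.05. Kidney RNA-seq and brain Ribo-seq were fitted in the same way, and the differences as assay or tissue by genotype terms. The common biological coefficient of variation was 0.12. Same-numbered WT and KO libraries did not deviate together (correlations of -0.07, -0.02 and 0.02), so replicates were not paired. The test called 97% of 200 genes changed by 2 on the log2 scale in simulated counts of 13271 genes for the kidney RPF comparison, and 17 unchanged genes. Most calls reported here were smaller changes, which were not simulated, so the 97% does not give their recovery. The simulated libraries also had no trend with length or GC content.

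Genes named were Rpl41, the 15 largest rises and 15 largest falls among calls with at least 5 CPM on average and groups that do not overlap, and per list up to 3 called members with the smallest adjusted p, or up to 2 of the highest members where none was called. Predicted genes and antibody or T cell receptor segments were left out of the largest changes. Names beyond this rule, such as list members that complete a count, were chosen after their values were seen. Some genes that the rule names are not reported here. The members and the 75 lists were chosen with earlier results of these data known, so no list is independent evidence of its direction. Alternatives were library totals, DESeq2, limma voom with quality weights, 2 other filters, counts summed per gene, all transcripts and thinning to equal depth. Others were offsets for transcript length and GC content, a replicate block, and each library left out. Fits were run in R 4.3.3 (DESeq2 1.42.0, limma 3.58.1) and summaries in Python 3.11.15 (pandas 2.3.3, matplotlib 3.10.9).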

Additional observations from a re-analysis of the deposited data

Results flagged for a closer look

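For 6 of the genes named, the change of footprints in kidney differed from that in brain by the tissue by genotype term. The term gave a kidney minus brain difference on the log2 scale of -4.46 for Slc6a5 (adjusted p = 0.0027), -2.83 for Nefh (adjusted p = 0.000731), -2.73 for Hs6st3 (adjusted p = 0.0027), -2.04 for Hecw1 (adjusted p = 0.00948), -1.85 for Mmp24 (adjusted p = 0.0105) and 2.71 for Igkc (adjusted p = 0.0449). Nefh and Hs6st3 were named after their values were seen.

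The 5 genes whose kidney change was the lower are far more abundant in brain. Nefh, the heavy neurofilament chain, had 260, 239 and 264 CPM in WT brain and 287, 320 and 311 CPM in KO brain, against 5.36, 7.72 and 6.41 CPM in WT kidney and 0.352, 1.18 and 1.13 CPM in KO kidney. Slc6a5 had 60.9, 54.8 and 74.5 CPM in WT brain and 90.0, 95.5 and 94.6 CPM in KO brain. The lowest brain library had 90.3 CPM of Hecw1, 33.8 CPM of Hs6st3 and 30.5 CPM of Mmp24. Of these 5 genes, only Mmp24 had enough reads in kidney RNA-seq to be tested. The neuronal genes Map2 and Syp did not pass the test in kidney, with log2 changes of 0.03 and 0.21 and adjusted p of 0.948 and 0.502 by edgeR. Igkc stood at 1.30, 1.27 and 2.08 CPM in WT brain and 0.442, 0.660 and 0.555 CPM in KO brain, lower in all 3 KO libraries, and was too low there to be tested alone.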

How the results depend on the processing

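Against 1439 kidney RPF calls (882 higher, 557 lower), a replicate block gave 943 (597 higher, 346 lower), limma voom with quality weights 2399 (1363 and 1036), counts summed per gene 852 (610 and 242), thinning to equal totals 758 (524 and 234), the replicate block with GC and length offsets 569 (311 and 258), DESeq2 1025 (795 and 230) and library totals alone 1019 (283 and 736). Leaving out 1 library gave 20 to 1585 calls, 9 to 1026 of them higher and 11 to 559 lower, with 29 without KO library 2 and 20 without KO library 3. The 2 filters, all transcripts and the offsets alone kept these counts within 1.5 times.

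Kidney RNA calls (1) became 337 with DESeq2, 2 without the filter and 2 with the replicate block, 0 with at least 10 counts in every library, where Rpl41 could not be tested and 2422 genes had an unadjusted p under 0.05, and 1 to 1577 with a library left out, the most without KO RNA library 1. Assay by genotype calls (326) became 123 with library totals, 1206 with DESeq2, 650 with at least 10 counts in every library, 129 with the replicate block and 0 to 2027 with a library left out, with at least 2651 genes at an unadjusted p under 0.05 wherever edgeR called 0. Brain RPF calls (2) became 189 with DESeq2, 15 without the filter, 0 with at least 10 counts in every library (1926 at an unadjusted p under 0.05), 6 with the replicate block and 1 to 4 with a library left out. Tissue by genotype calls (26) became 80 with DESeq2, 2 with at least 10 counts in every library, 14 with the replicate block and 7 to 46 with a library left out.

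Same-numbered WT and KO libraries share only a number, so the replicate block describes no known pairing. No named gene that was called reversed its direction under any of the 17 alternatives in which it could be tested, and 19 of 169 such genes passed in every one of them. The shifts of the longest and shortest groups of proteins moved by less than the spread between libraries in all 30 values computed without length offsets. Fits without a library have fewer samples, and otherwise the cause was not tested. Intervals and floors cover counting error only.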

Other observations

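Further gene groups held few calls. The clock repressor Nr1d1 rose from 86.0, 84.5 and 88.5 CPM in WT to 183, 134 and 135 CPM in KO, while Npas2, an activator of the clock, had 15.0, 14.0 and 1.87 CPM in WT and 4.93, 1.68 and 1.88 CPM in KO, with overlapping groups in which WT library 3 stood at the KO level. The other 17 of 19 tested clock genes did not pass. Of 20 tested cell cycle genes, the replication helicase genes Mcm4 and Mcm2 rose by 0.64 and 0.51 on the log2 scale and none fell. Of 17 genes of growth hormone and insulin-like growth factor signalling, 4 rose, Igfbp3 (0.53), Stat5a (0.45), Igf2r (0.50) and Stat5b (0.31). Of 13 polyamine genes, Amd1 and its near-identical copy Amd2 rose by 0.54 and 0.50. Of 21 immediate early genes, Dusp1 rose (0.49) and Jund and Egr3 fell (-0.59 and -1.77). Lysosomal hydrolases rose in 3 of 29, led by cathepsin S (Ctss, 23.2, 22.4 and 18.7 CPM in WT and 34.9, 37.2 and 41.1 CPM in KO). V-ATPase subunits held 1 rise and 2 falls in 23, the LDL receptor family 4 rises and 1 fall in 12, giant cadherins 3 rises in 9, and Sm and LSm proteins 2 falls in 21 (median -0.27). Among all genes 6.56% rose and 4.14% fell, against 4.35% and 8.70% of V-ATPase subunits and 10.3% rises in lysosomal hydrolases. LDL receptors and giant cadherins had medians of 1613.5 and 3346 residues, and 33.3% of each rose. In the longest of 10 equal groups by protein length 25.4% of genes rose. Lists this small do not separate such shares. None of the genes named here passed without KO library 2 or without KO library 3, and with library totals in place of TMM the cell cycle, growth hormone, polyamine and heat shock lists held no rise.

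Actins and small actin regulators (25 tested, median -0.09), tubulins (15, 0.02), replication-dependent histones (65, 0.01), glycolysis enzymes (15, 0.17), enzymes of the tricarboxylic acid cycle (14, 0.08), UDP-glucuronosyltransferases (21, 0.24), metallothioneins (3, 0.07) and renin-angiotensin genes (17, 0.18) held no call. Without KO libraries 2 and 3 the medians were 0.03 and 0.02 for tubulins, -0.06 and 0.04 for histones, -0.08 and 0.13 for metallothioneins and 0.22 and 0.28 for renin-angiotensin genes. Single calls stood in the lists of cytosolic heat shock proteins (Bag3, 0.49), gluconeogenesis (Pcx, 0.48), iron genes (Aco1, 0.54) and NRF2 targets (Srxn1, -0.55). Of 327 zinc finger genes named Zfp, 5 rose (1.53%) and 3 fell (0.917%). Red blood cell genes (7 tested), adipocyte genes (11) and the 1 tested adrenal gene held no call, although the 14 listed adipocyte genes summed to 2755 to 3560 CPM in WT and 4011 to 4646 CPM in KO. The adipocyte list had a median of -0.05, with -0.47 and 0.02 without KO libraries 2 and 3. Its members ran from -0.96 to 0.65, so the sum does not describe a typical member. The summed level of red blood cell genes was 2824 to 3663 CPM in WT and 1759 to 3613 CPM in KO.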
